A study of Gallus gallus with 5 samples.

Results

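The regions described here are strong, compact stretches of open chromatin that were listed near the top of every library, in both sorted populations of the embryonic chick retina. They were chosen by measured values. In each of the 5 deposited interval lists the unique intervals were ranked by the authors' fold enrichment, which is the signal at the summit of an interval over the local background of the same library. The strongest 50000 intervals of the 5 lists were merged into 79104 regions. A region was kept when it lay on a numbered chromosome, was under 2000 bp wide after merging and was overlapped in each of the 5 lists by an interval of rank 10000 or better. This left 5256 regions, 6.64% of all regions and 20.6% of the 25495 regions on numbered chromosomes that were among the strongest 50000 intervals of all 5 lists (the shared regions). The fold enrichment, rank and width of the 5256 regions are therefore given as descriptions, with no test.

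ATAC-seq was used, an assay that marks accessible DNA through adapter insertion by the Tn5 transposase. Chick (Gallus gallus) retinas of embryonic day 5 received 2 plasmids by electroporation, ThrbCRM1-GFP and CAG-Cherry, and were cultured as explants for 48 h. Cells were then sorted by flow cytometry into a ThrbCRM1-positive population (Cherry+/GFP+, 3 libraries) and a ThrbCRM1-negative population (Cherry+/GFP-, 2 libraries). All sorted cells of both groups thus carried the Cherry marker and had gone through electroporation, culture and papain dissociation, and the groups differ in the reporter signal. Both are mixtures of developing retinal cells, the negative population being whatever electroporated cells showed no GFP. The labels do not say whether replicates came from separate embryos or cultures, so the p-values here measure the spread between these libraries, which may be technical.

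ThrbCRM1 belongs to the Thrb gene, which encodes a thyroid hormone receptor needed for cone subtype identity, and acts as an enhancer. It is active in restricted retinal progenitor cells that give rise to cone photoreceptors and horizontal cells. Open chromatin that many cell types hold in common typically consists of promoters of broadly expressed genes, binding sites of the insulator protein CTCF and enhancers used across a lineage. Such regions show a common nucleosome-free core, and the point of most transposase insertion, called the summit, usually lies near the bound factors. Which of these classes each region belongs to was not analysed here. The submitters' processing notes name the galGal5 assembly, and no annotation or sequence of that assembly was used, so no gene is named and no sequence is printed. Coordinates below are those of the lists with 1-based starts.

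The lists held 99859 to 155087 rows and 71596 to 104902 unique intervals. They give no read counts, so the depth of the libraries is unknown. Library names inside the files fall into 2 naming series, the first with replicate 1 of each group and the second with the other 3 libraries. One library stood apart in the order of its regions. In positive replicate 2 the strongest of the 5256 regions were not poorer in microchromosome regions than the weakest, as they were in the other 4 libraries (values below).

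The regions made up most of the top of each list, which follows from their number and the choice. Each of them holds an interval of rank 10000 or better in every list. Of the 10000 strongest intervals of a library, between 52.56% and 52.58% therefore lay in them. Another 36.87% to 38.2% lay on numbered chromosomes in regions that fell below rank 10000 in at least one other list. Chromosomes without a number and unplaced sequences held 7.84% to 9.19%, and broad regions of 2000 bp or more that met the rank limit held 1.38% to 1.4%. In all, 5883 regions met the rank limit, of which 489 were not on numbered chromosomes (416 of them on Z) and 138 were too broad. The list that gave a region its worst rank was most often negative replicate 2 (1358 regions) and least often positive replicate 1 (666 regions), with 1137, 987 and 1108 regions for positive replicates 2 and 3 and negative replicate 1.

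Median fold enrichment at the 5256 regions was 9.75, 10.27 and 11.06 in positive replicates 1, 2 and 3. It was 10.01 and 11.48 in negative replicates 1 and 2. The ranges of the populations overlapped, and the values are not normalized between libraries, so they show no change of level. The lowest fold enrichment was 6.64 to 8.4 and the highest 21.15 to 23.94, depending on the list. The 19493 compact shared regions that missed the rank limit (the weaker compact regions) had medians of 4.9 to 6.06. Of the 5256 regions, 3722 had a −log10 q of 50 or more in every list, and 2 had one under 20 in some list.

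**Figure D1:**
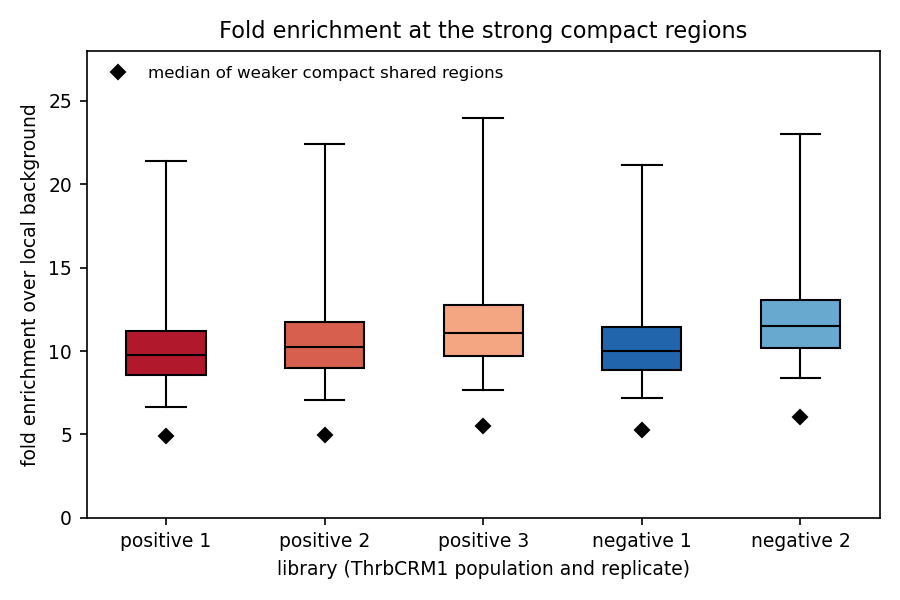
Fold enrichment over local background (linear axis) at the 5256 strong compact regions in each library. Boxes span the quartiles with the median as a line, whiskers reach the lowest and highest region, and diamonds are medians of the 19493 weaker compact shared regions, which were chosen to be lower; the 5 boxes have medians between 9.75 and 11.48.

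The 5 regions with the lowest mean rank over the 5 lists, which are high in both populations by choice, are described first. The strongest lay on chromosome 3 from 49762803 to 49763772 (970 bp). Its fold enrichment was 21.13, 19.01 and 23.94 in positive replicates 1, 2 and 3, and 20.78 and 21.45 in negative replicates 1 and 2, so that the populations overlapped. Its strongest summit moved by no more than 19 bp over the 5 libraries.

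The second lay on chromosome 7 from 29029549 to 29030418, with 1 summit in every library and a fold enrichment of 21.4, 21.19 and 20.9 in the positive and 18.29 and 22.44 in the negative libraries. The third lay on chromosome 1 from 189093764 to 189094523, with 2 summits in every library and values of 20.76, 20.42 and 20.42 in positive against 21.15 and 21.44 in negative libraries. At this region both negative values were above all 3 positive ones, but the values are not normalized between libraries. Its ranks overlapped, at 3, 5 and 9 in positive and 1 and 9 in negative libraries. Chromosome 2 held the fourth, from 33991910 to 33992800, and the fifth, from 146015171 to 146016131, each with 1 summit in every library. At the fourth the summits of all 5 libraries fell within 9 bp, and at the fifth within 40 bp.

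The median merged width was 1143 bp (quartiles 935 and 1389 bp), against 788 bp for the weaker compact regions. The 3 narrowest were 306 bp on chromosome 13 from 14539811, 328 bp on chromosome 4 from 46697168 and 353 bp on chromosome 3 from 48802265. They had 1 summit in each library, summit ranges of 16, 5 and 11 bp, and worst ranks of 6402, 9730 and 9159. The widest, on chromosome 24 from 4388037 to 4390035, had 3 to 6 summits, and the narrowest broad region outside the limit, 2000 bp on chromosome 1 from 119980320 to 119982319, had 4 to 6. At the rank limit, the last region inside was on chromosome 21 from 6635285 to 6636531, with a worst rank of 9995 and fold enrichments of 7.12 to 8.88. The first one outside was on chromosome 5 from 14557907 to 14558688, with a worst rank of 10002 and fold enrichments of 7.04 to 9.64, so that the limit separates regions of like strength.

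The position of the strongest summit was not used in the choice. It was held closely over the 5 libraries, and the ranges of library pairs between and within populations overlapped. The range of the strongest summit over the 5 libraries had a median of 46 bp (95% interval of the median over regions 44 to 47 bp). Its quartiles were 26 and 94.25 bp and its 90th percentile 184 bp. The interval covers the spread over regions only, not the spread between libraries. In 2857 of the 5256 regions (54.36%) all 5 summits fell within 50 bp. The weaker compact regions had a median range of 57 bp, with 44.93% within 50 bp.

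For a pair of libraries, the median distance of the strongest summits was 16 to 18 bp in the 4 pairs within a population and 16 to 20 bp in the 6 pairs between populations. The share of regions with summits within 50 bp was 79.9% to 82.4% within populations (mean 80.7%) and 78.4% to 82.2% between them (mean 80.5%). At the weaker compact regions the same shares were 74.96% to 78.18% within and 71.24% to 74.34% between populations, so there the ranges of the pairs did not overlap. At the strong compact regions, pairs that cross the naming series had shares of 80.46%, 79.87% and 82.38% within and 81.68%, 78.37% and 78.56% between populations. Pairs of the same series had 80.23% within and 82.19%, 81.07% and 81.34% between populations. The part of the series in these shares was not tested. Library pairs share libraries and regions, so these values are given as a description.

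**Figure D2:**
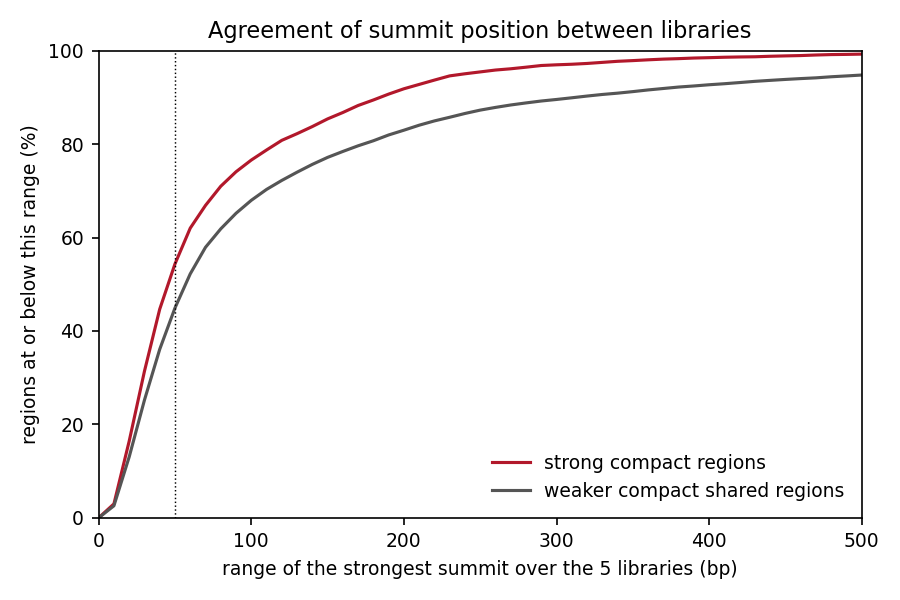
Share of regions (vertical axis, %) whose strongest summits in the 5 libraries lie within the range on the horizontal axis (bp), for the 5256 strong compact regions and the 19493 weaker compact shared regions. At 50 bp, the dotted line, the curves stand at 54.36% and 44.93%.

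The closer match of summits was present at every width. Among regions from 800 to under 1000 bp the median range was 34 bp at the 1043 strong and 68 bp at the 3610 weaker compact regions. Among those of 1500 bp or more it was 75 bp at 878 strong and 188 bp at 1482 weaker regions. Within the 5256 regions the range also went with strength, from a median of 37 bp in the 1314 strongest (by mean place over the 5 lists) to 54 bp in the 1314 weakest. Fold enrichment and depth can both move how precisely a summit is placed, and their part in these values was not tested. Only merged width was matched here, not the width listed in single libraries.

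In 41 regions (0.780%) the strongest summits of the 3 positive libraries lay on one side of those of the 2 negative libraries with a gap of over 100 bp. The same held for 2.55% of all 25495 shared regions (650 regions) and for 2.83% of the weaker compact regions, so the share was lower here. It was 0% at the 138 broad regions that met the rank limit, which are too few to compare with shares of this size. The gaps of the 41 regions ran from 101 to 919 bp, with a median of 135 bp. The count rose when a library was left out, which drops a condition. It was 97, 85 and 74 without positive replicates 1, 2 and 3 and 127 and 158 without negative replicates 1 and 2. The regions were then chosen anew (5393 to 5578 regions). No matching share over all shared regions is given, so nothing is read from the rise.

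The largest gap was on chromosome 2 from 15203413 to 15205137. There the strongest summit lay 1459, 1418 and 1437 bp from the region's start in positive replicates 1, 2 and 3 and 497 and 499 bp from it in negative replicates 1 and 2. The next was on chromosome 1 from 161733614 to 161735345, where the distances were 1001, 983 and 964 bp in the positive and 296 and 305 bp in the negative libraries, with 3 or 4 summits in each list. The third was on chromosome 10 from 17808408 to 17809895, with 898, 1128 and 904 bp in the positive and 367 and 340 bp in the negative libraries. In each of the 3 the populations did not overlap, which is the condition by which they were chosen.

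A change of the strongest summit did not always mean that the other position was missing from a list. In 3 of the 41 regions every list held a summit within 50 bp of the other population's median position. In 8 regions every positive list held one at the negative position, and in 14 every negative list held one at the positive position. In 9 regions no positive list held one at the negative position, and in 9 neither negative list held one at the positive position.

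The number of summits is a second measure that the choice did not use. The regions held 1 to 9 summits per library and 1.74 to 2.15 on average. There were 773 regions (14.71%) with 1 summit in all 5 lists and 1392 (26.48%) with several in all 5. The other regions had 1 summit in some lists and several in others. Among all shared regions the shares were 19.57% and 24.68%, and among the weaker compact regions 21.63% and 21.42%. These sets differ in width, so nothing is read from the shares. At the strong compact regions, single lists were compared next. The share with 1 summit was 47.26%, 36% and 42.73% in positive replicates 1, 2 and 3, and 52.91% and 43.91% in negative replicates 1 and 2. Positive replicate 1 lay between the negative libraries, so the populations overlapped.

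The mean share was 42.0% ± 5.67 over the positive libraries (SD, n = 3) and 48.41% ± 6.36 over the negative libraries (SD, n = 2), a difference of -6.42 percentage points (positive minus negative; two-sided exact permutation test over the 10 labelings of the libraries, p = 0.4, where the smallest possible is 0.1). Mean summits per region were 1.88, 2.15 and 1.96 in positive and 1.74 and 1.94 in negative libraries, a difference of 0.16 (exact permutation test, p = 0.4). The libraries of the populations overlapped in both measures, and neither test passed 0.05, which 5 libraries cannot reach. Within the first naming series the share with 1 summit differed by -5.65 percentage points and within the second by -4.55, each with too few libraries for a test.

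The lower mean share in positive libraries was seen at each width, from -8.29 percentage points at 1000 to under 1200 bp to -3.3 at 1500 bp or more. At the weaker compact regions the same difference lay between -0.97 and 1.12. The share at the strong minus that at the weaker compact regions was -1.97, -15.12 and -13.32 percentage points in positive replicates 1, 2 and 3 and -2.86 and -4.03 in negative replicates 1 and 2. That quantity also overlapped between populations (exact permutation test, p = 0.4), and the low values were those of the positive libraries of the second series.

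At equal merged width the strong regions more often had 1 summit than the weaker ones, except below 800 bp, where the ranges overlapped. The width listed in single libraries was not matched. Over all widths its median was 935 to 1055 bp at the strong and 473 to 633 bp at the weaker regions. Its part in the contrast was not tested. Among regions from 1000 to under 1200 bp the share was 39.87% to 60.2% over the 5 libraries at 1274 strong regions and 22.33% to 32.11% at 2342 weaker ones. The 1314 strongest regions had 1 summit in 48.55% to 68.65% of cases and the 1314 weakest in 27.63% to 40.94%, at median widths of 1112 and 1171 bp.

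**Figure D3:**
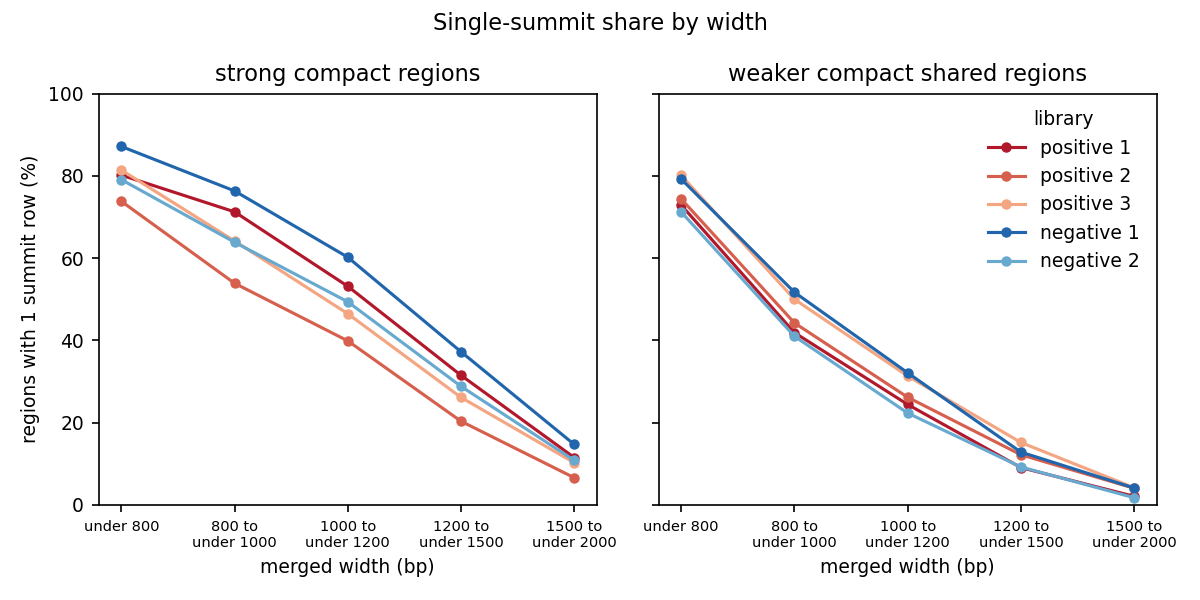
Share of regions with 1 summit row (vertical axis, %) by merged width (bp) in each library, for the strong compact regions (left) and the weaker compact shared regions (right). The share falls with width in every library, and at 1000 to under 1200 bp it is 39.87% to 60.2% on the left and 22.33% to 32.11% on the right.

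Neighbouring summits inside a region were most often 150 to 200 bp apart, in every library of both populations. That class held 16.7%, 18.8% and 18.0% of the distances in positive replicates 1, 2 and 3 and 17.2% and 18.5% in negative replicates 1 and 2. The weaker compact regions had the same commonest class in all 5 libraries, with 19.8% to 21.8%. Median distances were 251, 220 and 238 bp in the positive and 264 and 236 bp in the negative libraries.

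Beyond 300 bp the distances did not thin out evenly in every library. The class of 350 to 400 bp held more than that of 300 to 350 bp in positive replicate 1 (7.43% against 6.67%), negative replicate 1 (7.36% against 6.74%) and negative replicate 2 (6.28% against 5.75%). The farther class held less in positive replicate 2 (340 against 437, 5.64% against 7.24%) and positive replicate 3 (339 against 346, 6.71% against 6.85%). At the weaker compact regions the farther class held less in all 5 libraries. Those regions are narrower (median 788 against 1143 bp), and the part of width was not tested. The difference between the classes was not tested either, so no further peak is read from it. In regions with 2 summits, the median fold enrichment of the weaker summit was 0.51, 0.52 and 0.55 of the stronger in positive and 0.58 and 0.56 in negative libraries. At the weaker compact regions it was 0.59 to 0.70. The fold enrichment of the strongest summit was used in the choice, so nothing is read from this contrast between the sets.

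**Figure D4:**
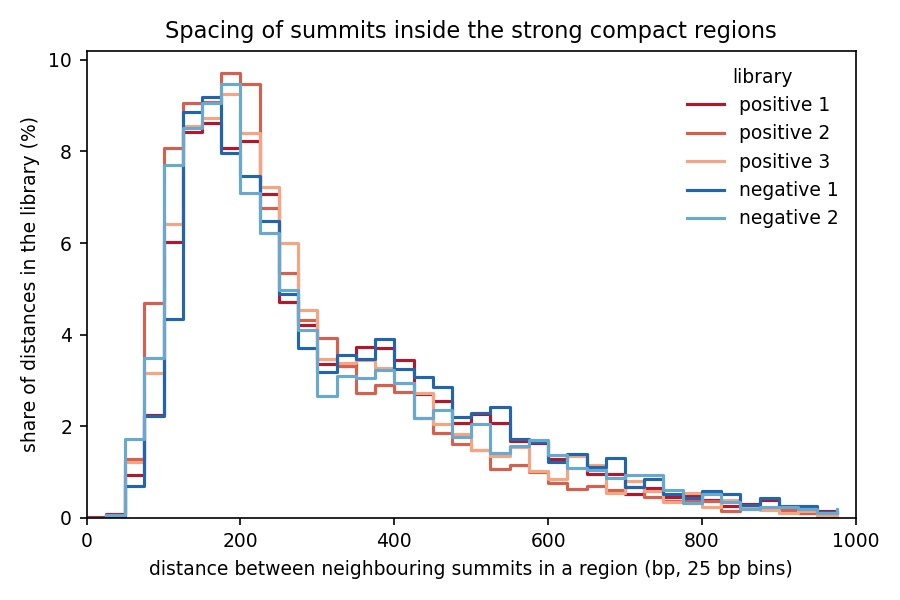
Distances between neighbouring summits inside the 5256 strong compact regions, as the share of all such distances in a library (vertical axis, %) in classes of 25 bp. All 5 libraries peak between 150 and 200 bp when counted in classes of 50 bp, where 16.7% to 18.8% of the distances lie.

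The additional summits were found again less often than the strongest one. The choice gave each region a strongest summit in every list, whereas an additional summit need not be listed at all. The contrast thus follows in part from the choice. A summit other than the strongest was found again within 50 bp in another library of the same population in 35.3% to 45.2% of cases (8 ordered pairs, mean 40.6%). Between populations the share was 31.0% to 46.9% (12 ordered pairs, mean 40.2%). The ranges overlapped almost wholly, so additional summits were not seen to recur more within a population.

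The listed intervals covered a median of 1037, 946 and 935 bp of a region in positive replicates 1, 2 and 3 and 1032 and 1055 bp in negative replicates 1 and 2. The choice bounds this width from above. Positive replicate 1 lay between the negative libraries, and the means of 972.7 ± 56.0 bp (SD, n = 3) and 1044 ± 16.3 bp (SD, n = 2) differed by -70.83 bp (positive minus negative). The difference was 5 bp within the first naming series and -114.5 bp within the second, so its direction was not the same in the 2 series.

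Chicken chromosomes fall into a few large macrochromosomes and many small, gene-dense microchromosomes. Chromosomes 1 to 5 held 3366 of the 5256 regions (64.04%), chromosomes 6 to 10 held 861 (16.38%) and chromosomes 11 and above, taken here as microchromosomes, held 1029 (19.58%, exact 95% interval 18.51 to 20.68%). Of the weaker compact regions 24.38% lay on microchromosomes, and of all shared regions 23.32%. Of the 138 broad regions that met the rank limit it was 12.32%, lower than at the strong compact regions. Put the other way, the strong compact regions were 22.2% of shared regions on chromosomes 1 to 5, 19.7% on chromosomes 6 to 10 and 17.3% (exact 95% interval 16.4 to 18.3%) on microchromosomes. Intervals here cover counting error over regions only.

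Single chromosomes varied within each class. On chromosomes 1 to 5 the share ran from 21.3% to 23.3%, and on the 17 microchromosomes with at least 100 shared regions from 10.2% to 23.2%. The lowest were chromosome 25 (11 of 108 regions, 10.19%), chromosome 24 (25 of 239, 10.46%) and chromosome 17 (45 of 366, 12.3%). Chromosome 14, with 113 of 487 regions (23.2%), was as high as chromosome 1 with 1037 of 4455 (23.28%). These chromosomes were chosen after their values were seen.

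The strongest regions were poorer in microchromosome regions than the weakest in 4 of the 5 libraries. Of the 1314 strongest regions by mean place, 11.26% lay on microchromosomes, and of the 1314 weakest 27.32%. Taken in each list alone, the shares in the strongest and the weakest 1314 regions were 11.57% and 23.97% in positive replicate 1, 8.98% and 32.27% in positive replicate 3, 8.9% and 30.52% in negative replicate 1 and 11.04% and 24.35% in negative replicate 2. In positive replicate 2 they were 17.12% and 15.91%, and the groups of 1314 regions between these held 22.15% and 23.14%. Without positive replicate 2 the shares by mean place were 9.74% and 29.68%. The share in the strongest 1314 overlapped between populations. It was 12.56% ± 4.16 over the positive (SD, n = 3) and 9.97% ± 1.51 over the negative libraries (SD, n = 2). These regions were taken by fold enrichment, which the choice had used, so no test is given. Base composition and library preparation were not measured, and their part in this pattern was not tested.

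Distances between regions are given as a description. The median distance to the nearest other strong compact region was 41.39 kb, and 540 regions (10.27%) had one within 10 kb. Among all shared regions, a larger set, the median distance was 11.28 kb and the share 45.35%. A smaller set lies farther apart by number alone, and no comparison at equal number was made. From the strong compact regions, the nearest shared region of any strength lay at a median of 13.34 kb, against 10.62 kb for the weaker compact regions. It lay within 10 kb in 36.99% and 47.7% of cases. For the 138 broad regions that met the rank limit these values were 16.15 kb and 31.16%. The 1314 strongest regions had their nearest shared neighbour at a median of 15.09 kb and the 1314 weakest at 11.3 kb.

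The order of the regions by strength was described for each library. Each region was given its place from 1 to 5256 by fold enrichment in every list, so that list length does not enter. Across the regions of a library pair, Spearman's rho of the places over the 5256 regions was 0.697 to 0.790 for the 4 library pairs within a population and 0.603 to 0.734 for the 6 pairs between populations. At the 19493 weaker compact regions the same values were 0.762 to 0.820 within and 0.346 to 0.475 between populations. At the strong compact regions the mean was 0.754 within and 0.664 between populations. The ranges overlapped only through the pair of positive replicate 1 and negative replicate 1 (0.734). All other pairs between populations were at 0.694 or less, below the lowest pair within a population (0.697). Positive replicate 1 and negative replicate 1 share a naming series. So do positive replicates 2 and 3 (0.697), positive and negative replicate 2 (0.608), and positive replicate 3 with negative replicate 2 (0.667). The part of the naming series was not tested. The points share libraries, and the choice itself required a high rank in every list, which narrows the differences that can occur.

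In 858 regions (16.32%) the place was higher in each of the 3 positive libraries than in each of the 2 negative ones, and in 750 (14.27%) it was the other way round. Among the 138 broad regions that met the rank limit, placed in the same way, the shares were 14.49% and 13.04%. Among all shared regions they were 23.3% and 21.3%. The strong compact regions thus fell below the background in both directions, and nothing is read from this beyond the choice, which used the same measure. When the 5256 regions were placed among all shared regions instead, 1026 (19.52%) and 647 (12.31%) were higher in positive and in negative libraries. With regions chosen and placed by −log10 p (5596 regions), 767 were higher in positive and 851 in negative libraries. Which of the counts was larger thus changed when the measure and the regions changed. The shares over all shared regions placed by −log10 p are not given, so nothing more is read from these counts. Leaving out a library, which drops a condition, raised the first count to between 1204 and 1681 (1344 and 1327 without positive replicates 2 and 3, 1681 and 1541 without negative replicates 1 and 2). The second rose to between 1049 and 1446 (1161 without positive replicate 3, 1446 and 1426 without negative replicates 1 and 2). These counts are over regions chosen anew (5393 to 5578 regions). No matching share over all shared regions is given, so nothing is read from the rise.

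The region with the largest shift towards positive libraries lay on chromosome 21 from 5630789 to 5631434 (646 bp). Its fold enrichment was 12.46, 14.66 and 14.02 in positive and 7.67 and 9.22 in negative libraries. Its places were 612, 134 and 665 in positive and 4975 and 4786 in negative libraries, and its summits stayed within 76 bp. The next were on chromosome 1 from 9745554 to 9746273, at places 1582, 746 and 423 against 4978 and 5211, and on chromosome 5 from 20044566 to 20045320, at places 2217, 1304 and 302 against 5057 and 5086.

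The largest shift towards negative libraries was on chromosome 2 from 94760734 to 94761365 (632 bp), with fold enrichments of 8.16, 7.29 and 8.87 in positive and 14.74 and 14.41 in negative libraries. Its places were 4339, 5148 and 4631 in positive and 128 and 564 in negative libraries. The second, also on chromosome 2, from 2326499 to 2327345, stood at places 3826, 4807 and 4259 in positive and at 41 and 39 in negative libraries. There the fold enrichment was 8.65, 7.92 and 9.31 in positive and 15.96 and 18.0 in negative libraries, and the summits of all 5 lay within 20 bp. The third was on chromosome 3 from 25618265 to 25619200, at places 4860, 4698 and 5076 against 227 and 1235. Of the 6 regions named for their shift, 5 had 1 summit in every list and the one on chromosome 21 had 2 in negative replicate 2.

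**Figure D5:**
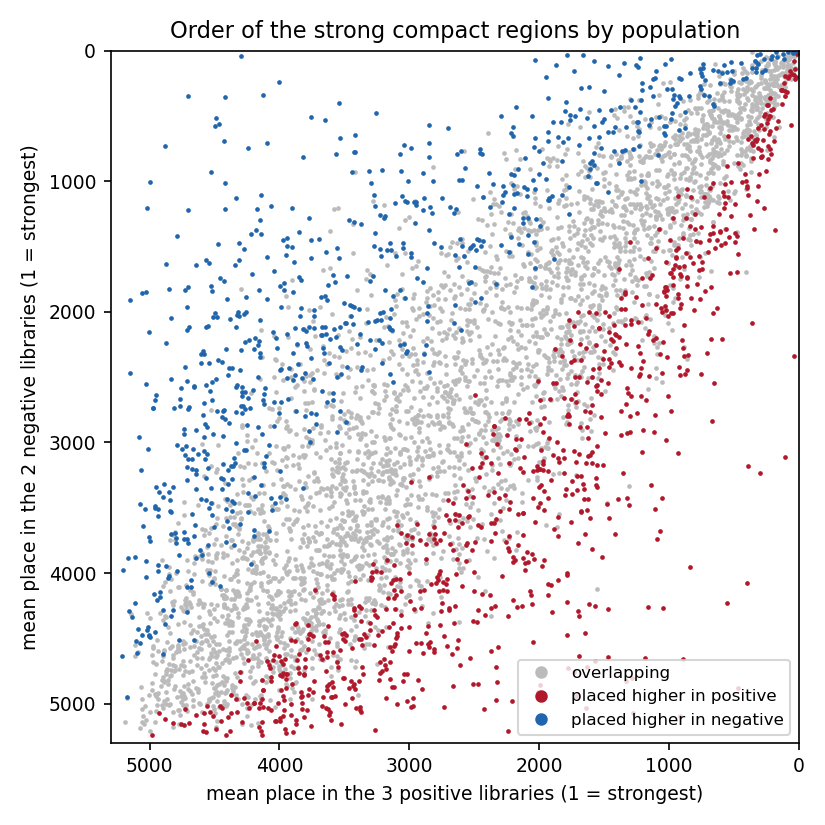
Mean place of each of the 5256 strong compact regions in the 3 positive (horizontal axis) and the 2 negative libraries (vertical axis), where 1 is the strongest and both axes run towards 1. Red points, 858 regions, were placed higher in every positive library than in every negative one, blue points, 750 regions, the other way round, and grey points overlap.

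Width and chromosome class of the shifted regions are given as a description. The 858 regions placed higher in positive libraries had a median merged width of 1288 bp and the 750 placed higher in negative libraries 1012 bp, with 1149 bp for the 3648 regions whose places overlapped. On microchromosomes lay 19.7%, 10.4% and 21.44% of them. That contrast was not seen without positive replicate 2, the library that stood apart in this property. Placed without it, over the same 5256 regions, 17.5% of the 1206 regions higher in positive libraries, 18.95% of the 1045 higher in negative libraries and 20.63% of the other 3005 lay on microchromosomes. The median widths were then 1239, 1031 and 1154 bp, in the same order as with all 5 libraries. This comparison was added after the values had been seen. Leaving out a library also drops a condition, and the shares without each other library are not given. The part of positive replicate 2 alone in the contrast was therefore not tested.

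The surroundings of the shifted regions were compared with regions listed in one population alone. On numbered chromosomes, 2479 regions were among the strongest 50000 intervals of all positive lists with no interval in either negative list, and 2301 were so the other way round. At least one of the positive-only regions lay within 50 kb of 21.45% of regions placed higher in positive libraries, of 21.2% of those placed higher in negative libraries and of 22.86% of those with overlapping places. For negative-only regions the shares were 18.65%, 18.8% and 16.94%. The 3 classes thus had similar shares near them, and these shares are a description over regions, and no test was made.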

How the data were processed

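One interval list per library was used, for 3 ThrbCRM1-positive and 2 ThrbCRM1-negative libraries grouped by their titles. The submitters' processing notes name Bowtie2, MACS2 and galGal5, without versions. Handling of duplicates, of mitochondrial reads and of the Tn5 offset is not given in the sources used here. The authors' columns hold, per summit, a fold enrichment over local background (a ratio), −log10 p and −log10 q values and a score. That deposited score equalled 10 times the −log10 q (within 1 unit) in 100% of rows, and it was left unused. The lowest deposited −log10 q was 1.301, a q of 0.05. The other deposited columns are positions. Lists were made per library, not on pooled replicates.

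Rows sharing an interval were joined, with the summit of highest fold enrichment as its strongest, and regions merged from the 50000 strongest intervals of each list at a minimum overlap of 1 bp. Summits of a region are all rows of the listed intervals that overlap it. One value per library was compared with an exact permutation test over all 10 labelings, two-sided, which cannot give less than 0.1. Calculations used Python 3.11.15, numpy 2.4.6, pandas 2.3.3 and scipy 1.17.1, and were tested on simulated lists with known regions. The depth is unknown. Ranks, widths, the overlap rule, the q threshold and each library were varied.

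The members and all measures were chosen with earlier results of these data known. Named regions are the 5 of lowest mean rank, the 3 with the largest shift in each direction, the 3 with the largest gap between summits, the 3 narrowest and those next to the limits. Transcription starts, motifs and marker genes were not analysed here, since they need an annotation of the lists' build and the gene table at hand describes GRCg7b. The planned test of listed width is not given, because the choice bounds that width.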

Additional observations from a re-analysis of the deposited data

How the results depend on the processing

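Counts followed the limits of the definition. They are over regions chosen anew under each setting, and no matching share over shared regions of like width is given. Nothing is therefore read from the counts of regions with summits apart or placed higher. At rank 5000 or better in every list there were 2464 regions, with a median summit range of 43 bp, 12 with summits apart, 366 and 323 placed higher in positive and negative libraries, 14.04% on microchromosomes and 6.09% within 10 kb of another. At rank 20000 the values were 10335 regions, 135 apart, 1985 and 1743 by place, 22.76% and 19.75%. Below 1000 bp they were 1688 regions, a range of 30 bp, 7 apart, 286 and 249 by place and 4.27% within 10 kb. Ranking by −log10 p gave a range of 50 bp, 12.62% within 10 kb and counts by place of 767 and 851, in the opposite order of size, with 4612 of the 5256 regions (87.75%) overlapping those chosen so. A width limit of 3000 bp, a q of 0.01 and an overlap of 50% of the shorter interval moved no result past its interval or by 1.5 times.

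Leaving out each library in turn gave 5393 to 5578 regions, summit ranges of 37 to 41 bp, 74 to 158 regions with summits apart, 1204 to 1681 and 1049 to 1446 by place, 18.82% to 20.48% on microchromosomes and 10.6% to 10.9% within 10 kb. The differences between populations kept their direction there, at -10.7 to -1.89 percentage points in the share with 1 summit, 0.05 to 0.26 summits per region and -104.5 to -52.25 bp of listed width.

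The split by naming series was chosen after seeing the data. In the first series alone the difference in listed width reversed to 5 bp. The cause was not tested. Replicate numbers 1 and 2 occur in both groups. Over the regions, the difference between replicates 1 and 2 correlated between groups at 0.07 for summit number and 0.29 for listed width. In both groups replicate 1 is of the first and replicate 2 of the second naming series. These values therefore cannot tell pairing from the series, and pairing is not established. With a replicate block the mean differences were -6.78 percentage points, 0.17 summits and -52 bp. No p under 0.1 is possible with 5 libraries, so no setting could pass 0.05. Transcription start and motif alternatives were not run. Unknown depth limits what a missing summit means.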
